A study of Mus musculus with 9 samples.

Results

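The Schwann cell and glial genes Sox10, Cdh19, Xkr4, Ncam1, Scn7a, S100b, Pmp22 and Mbp were followed by symbol through the gene counts of 9 mouse aortae. All 8 were found among the 55453 genes listed, and all 8 were among the 19412 genes tested after a filter on low counts. The aortae came from C57BL/6J mice of 3 genotypes, with 3 mice each. Itga8-Cre mice carried Itga8-CreERT2, which couples a Cre recombinase that tamoxifen switches on to Itga8, an integrin subunit gene. Myh11-Cre mice carried Myh11-CreERT2, a Cre of the same kind coupled to the smooth muscle myosin gene Myh11. Wild Type mice served as controls. The labels name no tamoxifen treatment, age, sex, copy number or batch. The stated purpose of the study was to set the new Cre mouse beside the Myh11-CreERT2 mouse, both meant to act in smooth muscle. The 8 genes were chosen as genes of glia, in which neither Cre is meant to act. Their levels in whole aortae do not describe glia alone.

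Schwann cells are the glia of peripheral nerves, and they derive from the neural crest. Some wrap single large axons in myelin, a stack of membrane held together by proteins such as Pmp22 and Mbp. Others, the non-myelinating or Remak cells, ensheathe bundles of thin axons, among them the sympathetic fibres that run in the adventitia of arteries. Both kinds depend on the transcription factor Sox10, and both lie in nerve twigs and small ganglia on the outside of the vessel. Several of the 8 genes are used by other cells too: S100b is made by fat cells, Pmp22 by fibroblasts, Ncam1 by neurons and muscle, and Mbp by lymphoid cells through the long transcripts of its locus.

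Of the 8 genes, RefSeq promoter windows on GRCm38.p6 were at hand for Scn7a, S100b and Pmp22 only, which is why these are shown. Each is the stretch of 250 bases before a transcription start. Capitals mark GGAATG, the core of TEAD sites, and GCGTGGG, the core of EGR sites, on either strand, so that the reverse complements CATTCC and CCCACGC are capitals as well. The Scn7a window is chr2:66784911-66785160 on the minus strand, the S100b window chr10:76253586-76253835 on the plus strand, and the Pmp22 window chr11:63128732-63128981 on the plus strand.
Scn7a: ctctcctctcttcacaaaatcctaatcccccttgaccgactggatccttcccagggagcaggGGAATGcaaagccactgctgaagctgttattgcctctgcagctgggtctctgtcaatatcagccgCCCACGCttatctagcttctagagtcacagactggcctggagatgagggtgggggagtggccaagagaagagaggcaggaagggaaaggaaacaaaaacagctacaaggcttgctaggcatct
S100b: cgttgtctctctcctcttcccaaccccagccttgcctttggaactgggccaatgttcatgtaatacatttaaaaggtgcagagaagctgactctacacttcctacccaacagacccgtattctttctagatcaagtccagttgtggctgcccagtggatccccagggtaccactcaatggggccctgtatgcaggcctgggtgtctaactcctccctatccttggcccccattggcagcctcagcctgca
Pmp22: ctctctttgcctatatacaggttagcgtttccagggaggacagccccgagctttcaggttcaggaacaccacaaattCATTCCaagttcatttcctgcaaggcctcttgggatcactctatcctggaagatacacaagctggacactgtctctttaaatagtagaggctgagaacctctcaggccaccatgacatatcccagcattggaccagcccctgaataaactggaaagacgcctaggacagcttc
The Pmp22 window belongs to the most upstream of 4 RefSeq starts of that gene, and in rodents the upstream promoter is the one used in myelinating Schwann cells. ACAAAG, a core of SOX sites, was in 0 of the 6 windows of these 3 genes, against 16.5% of all 32851 promoter windows of the same length. GGAATG was in 2 of the 6 windows, against 12.6% of all windows, and lay 188 bases before the start of Scn7a and 173 bases before that of Pmp22. GCGTGGG was in 1 of the 6, that of Scn7a at 123 bases before the start, against 4.30% of all windows. These matches describe letters in these windows and not sites of binding. The counts were made per gene and do not separate the starts of Pmp22.

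Total counts ran from 31419238 to 42497543 per library. Levels are in CPM, a gene's count relative to the library total after TMM scaling. Itga8 itself averaged 64.5 ± 11.3 CPM in Itga8-Cre aortae, against 273 ± 177 CPM in Wild Type aortae (SD, n = 3 each). In Myh11-Cre aortae it averaged 223.5 ± 130.9 CPM (SD, n = 3). Of these, Myh11-Cre 1 was at 72.35 CPM, within the Itga8-Cre range of 54.13 to 76.45 CPM. Libraries differed in the levels of skeletal muscle markers and of axon and neuron markers. The source of these differences was not tested. The summed level of 8 skeletal muscle markers ran from 130 to 5701 CPM in Itga8-Cre aortae, from 83.9 to 12930 CPM in Myh11-Cre aortae and from 722 to 1396 CPM in Wild Type aortae. It was highest in Myh11-Cre 3, Myh11-Cre 2 and Itga8-Cre 3. The sum of 15 axon and neuron markers ran from 369 to 650 CPM in Itga8-Cre aortae, from 105 to 356 CPM in Myh11-Cre aortae and from 419 to 997 CPM in Wild Type aortae, so that every Myh11-Cre library was below every other library. All 15 of these markers had counts.

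Beyond the 8 genes, all 32 genes of a list of other Schwann cell and myelin genes, described further on, had counts. By the fitted log2 fold change, 17 of the 32 were lower in Myh11-Cre than in Wild Type and 15 were higher. In every library, 10 of the 32 were lower in Myh11-Cre, against 14.7% of all genes, and 0 were higher. Erbb3 of that list, the receptor through which Schwann cells sense neuregulin from axons, was chosen after its values were seen and differed little. It averaged 20.1 CPM with Itga8-Cre, 23.2 CPM with Myh11-Cre and 22.1 CPM in Wild Type aortae. Markers of oligodendrocytes, the myelinating cells of brain and spinal cord, were near 0, with 6 genes summing to between 0.234 and 0.666 CPM in any library. Melanocytes also use Sox10. Their 6 markers summed to 14.9 to 30.0 CPM in Itga8-Cre aortae, 19.1 to 33.2 CPM in Myh11-Cre aortae and 15.6 to 21.5 CPM in Wild Type aortae. The highest of the 6 was Mitf, which many cell types express.

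To set levels of different genes side by side, CPM was divided by the length of annotated exons in kilobases. Pmp22 had the highest level per kilobase, with a mean over the 9 libraries of 34.4 CPM per kilobase and a range of 28.4 to 45.7. S100b followed at 17.7 (13.0 to 24.2) and Scn7a at 14.3 (12.4 to 17.1), and these neighbours overlapped. Mbp at 9.37 (7.49 to 11.2), Ncam1 at 8.53 (4.66 to 11.7) and Cdh19 at 5.92 (4.40 to 8.12) CPM per kilobase overlapped likewise, each with the next. Sox10 at 1.79 (1.38 to 2.44) and Xkr4 at 0.724 (0.376 to 1.25) stood lowest, apart from the other 6 genes and from each other. For comparison on the same scale, Ngfr at 15.96 and Cnp at 10.9 CPM per kilobase. The exon length counts every annotated isoform, so a gene with long rarely used exons has its level understated.

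**Figure D1:**
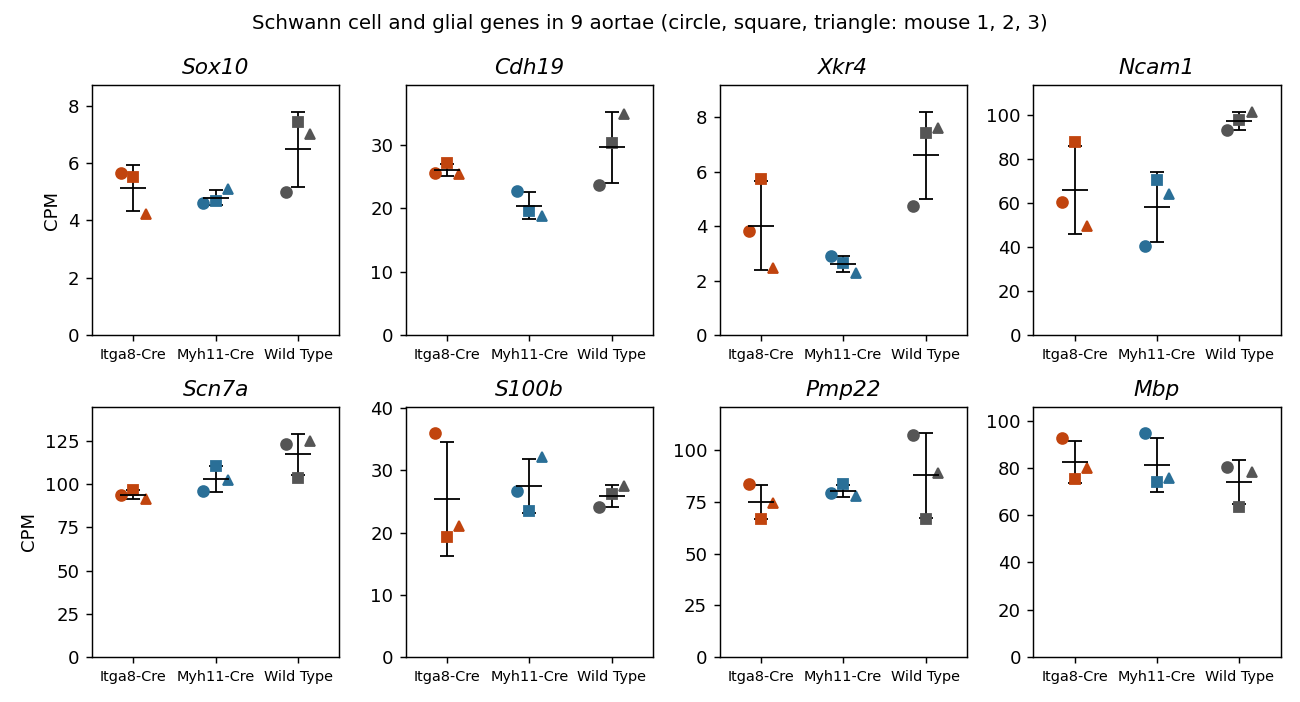
Levels in CPM (y axis, from 0) of the 8 genes in Itga8-Cre, Myh11-Cre and Wild Type aortae, with a point for each mouse and the mean ± SD of 3 mice. Ncam1 stood at 93.2 CPM or more in all Wild Type aortae and at 87.9 CPM or less in all others, while Mbp, Pmp22 and S100b overlapped between the genotypes.

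Sox10 (ENSMUSG00000033006.10, chromosome 15, 79154908 to 79165240, GRCm38) sets the glial fate of neural crest cells and drives myelin genes. It was at 5.66, 5.53 and 4.22 CPM in Itga8-Cre 1, 2 and 3, at 4.63, 4.67 and 5.11 CPM in Myh11-Cre 1, 2 and 3, and at 4.98, 7.43 and 7.03 CPM in Wild Type 1, 2 and 3. These rest on 143 to 281 counts per library. Wild Type 2 and 3 were above all Cre libraries, but Wild Type 1 was within their range, so no pair of groups was apart. Against Wild Type, Sox10 had a log2 fold change of -0.34 (SE 0.20) in Itga8-Cre and -0.43 (SE 0.20) in Myh11-Cre, with adjusted p of 0.704 and 0.313.

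Cdh19 (ENSMUSG00000047216.8, chromosome 1, 110888326 to 110977584) encodes a cadherin, a cell adhesion protein found on Schwann cells and their precursors. It was at 25.5, 27.1 and 25.4 CPM in Itga8-Cre aortae, at 22.8, 19.6 and 18.8 CPM in Myh11-Cre aortae, and at 23.6, 30.3 and 34.8 CPM in Wild Type aortae. All Myh11-Cre libraries were below all others, while Itga8-Cre and Wild Type overlapped. The means were 26.0 ± 0.968 CPM for Itga8-Cre, 20.4 ± 2.09 CPM for Myh11-Cre and 29.6 ± 5.62 CPM for Wild Type (SD, n = 3 each), so Cdh19 was 1.45-fold lower in Myh11-Cre than in Wild Type and 1.27-fold higher in Itga8-Cre than in Myh11-Cre.

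Xkr4 (ENSMUSG00000051951.5, chromosome 1, 3205901 to 3671498) encodes a membrane protein of the XK-related family, some of whose members scramble phospholipids between the leaflets of the membrane. It was the least abundant of the 8 genes per kilobase and had the widest range over libraries, with a highest value 3.33 times the lowest. It was at 3.83, 5.75 and 2.48 CPM in Itga8-Cre aortae, at 2.90, 2.65 and 2.29 CPM in Myh11-Cre aortae, and at 4.75, 7.43 and 7.62 CPM in Wild Type aortae. These are 84 to 293 counts per library. All Myh11-Cre libraries were below all Wild Type libraries, and Itga8-Cre overlapped both. Mean levels were 4.02 ± 1.65 CPM for Itga8-Cre, 2.61 ± 0.306 CPM for Myh11-Cre and 6.60 ± 1.61 CPM for Wild Type, a 1.64-fold lower level in Itga8-Cre and a 2.53-fold lower level in Myh11-Cre than in Wild Type.

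Ncam1 (ENSMUSG00000039542.16, chromosome 9, 49502136 to 49798925), the neural cell adhesion molecule, binds cells to each other and is kept by Remak Schwann cells and their axons. It was at 60.5, 87.9 and 49.4 CPM in Itga8-Cre aortae, at 40.4, 70.7 and 64.0 CPM in Myh11-Cre aortae, and at 93.2, 97.8 and 101.4 CPM in Wild Type aortae. All 6 Cre libraries were below all 3 Wild Type libraries. The spread was also uneven, with a coefficient of variation of 30.1% among Itga8-Cre mice, 27.3% among Myh11-Cre mice and 4.20% among Wild Type mice. Means were 65.9 ± 19.8 CPM for Itga8-Cre, 58.4 ± 15.9 CPM for Myh11-Cre and 97.5 ± 4.10 CPM for Wild Type, so Ncam1 was 1.48-fold lower in Itga8-Cre and 1.67-fold lower in Myh11-Cre than in Wild Type. The antisense gene Gm11149 shares exon sequence with Ncam1 but had a mean of 0.0331 CPM.

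Scn7a (ENSMUSG00000034810.7, chromosome 2, 66673425 to 66784914) encodes Nax, a sodium channel relative found on non-myelinating Schwann cells that senses sodium outside the cell in the brain. It was the steadiest of the 8 genes, with a highest value 1.38 times the lowest. It was at 94.1, 96.8 and 91.2 CPM in Itga8-Cre aortae, at 96.2, 111 and 102 CPM in Myh11-Cre aortae, and at 123, 104 and 125 CPM in Wild Type aortae. Itga8-Cre was below Wild Type in every library, while Myh11-Cre overlapped with both. The means of 94.0 ± 2.77 CPM in Itga8-Cre aortae and 117 ± 12.0 CPM in Wild Type aortae differed 1.25-fold.

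S100b (ENSMUSG00000033208.7, chromosome 10, 76253853 to 76261159), the calcium-binding protein used to stain Schwann cells, did not separate any pair of genotypes. It was at 35.9, 19.2 and 21.1 CPM in Itga8-Cre aortae, at 26.6, 23.5 and 32.1 CPM in Myh11-Cre aortae, and at 24.1, 26.2 and 27.5 CPM in Wild Type aortae. Itga8-Cre 1 was the highest of the 9 libraries and Itga8-Cre 2 the lowest, so the full range lay within 1 genotype. The summed level of 6 fat cell markers was likewise lowest in Itga8-Cre 2, at 4085 CPM, and was 8574 CPM in Itga8-Cre 1, the second highest of the 9. The part of fat cells in the level of S100b was not tested.

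Pmp22 (ENSMUSG00000018217.12, chromosome 11, 63128982 to 63159547), a membrane protein of compact myelin, was at 83.6, 66.9 and 74.7 CPM in Itga8-Cre aortae, at 79.4, 83.7 and 78.1 CPM in Myh11-Cre aortae, and at 108, 66.9 and 88.9 CPM in Wild Type aortae. Wild Type mice covered nearly the full range between them. Mbp (ENSMUSG00000041607.17, chromosome 18), the protein that joins the inner faces of the myelin membrane, was at 92.6, 75.2 and 79.9 CPM in Itga8-Cre aortae, at 94.7, 74.0 and 75.6 CPM in Myh11-Cre aortae, and at 80.5, 63.5 and 78.2 CPM in Wild Type aortae. Of the 8 genes, Mbp alone had a mean above that of Wild Type in both Cre lines. The means were 82.6 ± 9.0 CPM for Itga8-Cre, 81.4 ± 11.5 CPM for Myh11-Cre and 74.0 ± 9.24 CPM for Wild Type, a difference within the spread between mice.

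Itga8-Cre aortae were compared with Wild Type to ask what else differed in vessels with the new Cre. Of the 8 genes, 7 were lower in Itga8-Cre by the fitted log2 fold change, against 44.1% of all genes, and Mbp was higher. None passed the edgeR quasi-likelihood test over all genes, where 0 genes (0%) were called. The limma voom test also called 0 of the 8, and DESeq2 called 0 of the 8 and 30 genes in all (0.166%). At an unadjusted p under 0.05 there were 2 of the 8, Scn7a and Ncam1, both lower, against 2.81% of all genes that were lower at that p. The same 2 genes were lower in every library, against 5.37% of all genes. Ncam1 had a log2 fold change of -0.56 (SE 0.25, adjusted p = 0.699). Scn7a had -0.32 (SE 0.10, adjusted p = 0.699). Xkr4 had -0.71 (SE 0.31), Pmp22 -0.23 (SE 0.17), Cdh19 -0.19 (SE 0.14), S100b -0.028 (SE 0.23) and Mbp 0.16 (SE 0.14). The median over the 8 genes was -0.27, against 0.04 over all genes tested. Markers of the vessel wall were lower in the same comparison. The sum of 8 smooth muscle markers ran from 1306 to 1653 CPM in Itga8-Cre aortae and from 2038 to 3479 CPM in Wild Type aortae, without overlap. All 8 had a lower mean, with a median log2 fold change of -0.70, and 5 were lower in every library, against the 5.37% above. At an unadjusted p under 0.05 there were 2 of them lower, against the 2.81% above, and edgeR and DESeq2 called 0. The sum of 6 endothelial markers ran from 552 to 696 CPM in Itga8-Cre aortae and from 689.5 to 753 CPM in Wild Type aortae, which overlapped, and all 6 had a lower mean (median -0.20), 1 of them lower in every library. The part of these tissues in the lower values of Scn7a and Ncam1 was not tested. In bulk tissue, fewer cells of a kind and less RNA per cell cannot be told apart.

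Myh11-Cre aortae were compared with Wild Type in the same fit, with the same 3 Wild Type libraries. Here 6 of the 8 genes were lower, against 49.1% of all genes, and Mbp and S100b were higher. The largest difference was that of Xkr4, with a log2 fold change of -1.34 (SE 0.32, adjusted p = 0.218). Next were Ncam1 at -0.74 (SE 0.25, adjusted p = 0.236) and Cdh19 at -0.54 (SE 0.14, adjusted p = 0.218). Again edgeR called 0 genes (0%) and 0 of the 8, as did limma voom. DESeq2 called 1 of the 8, Xkr4, as lower (log2 fold change -1.32, adjusted p = 0.00557), against 4.44% of all genes called and 3.09% called as lower. Over the alternatives run, the adjusted p of Xkr4 ranged from 0.00557 to 0.584, and it was under 0.05 by DESeq2 only. At an unadjusted p under 0.05 there were 3 of the 8, Xkr4, Cdh19 and Ncam1, all lower, against 9.48% of all genes. These 3 were also lower in every library, against 14.7% of all genes. Scn7a had -0.19 (SE 0.10), Pmp22 -0.13 (SE 0.17), S100b 0.08 (SE 0.23) and Mbp 0.14 (SE 0.14). The median over the 8 genes was -0.31, against 0.007 over all genes.

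Without each library in turn, the log2 fold change of Xkr4 in Myh11-Cre against Wild Type stayed between -1.52 and -1.22, that of Ncam1 between -0.89 and -0.53 and that of Cdh19 between -0.67 and -0.40. Those of Xkr4 and Ncam1 in Itga8-Cre against Wild Type ranged more widely, from -1.08 to -0.47 and from -0.84 to -0.40, with the values farthest from 0 reached without Itga8-Cre 2. Without the 3 libraries richest in skeletal muscle, which leaves Myh11-Cre 1 alone in its group, Ncam1 in Myh11-Cre against Wild Type was at -1.27 and Cdh19 at -0.38.

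Itga8-Cre and Myh11-Cre aortae were compared directly, which also tests whether the lines differ from Wild Type by unequal amounts. Of the 8 genes, 3 were lower in Itga8-Cre, against 48.7% of all genes. The smallest p was that of Cdh19, higher in Itga8-Cre with a log2 fold change of 0.35 (SE 0.14, adjusted p = 0.521). It alone had an unadjusted p under 0.05, against 7.64% of all genes that were higher at that p. It alone was higher in every library, against 9.65% of all genes. Xkr4 had 0.62 (SE 0.32), Ncam1 0.18 (SE 0.25) and Sox10 0.10 (SE 0.20). Scn7a had -0.13 (SE 0.10), S100b -0.11 (SE 0.23), Pmp22 -0.10 (SE 0.17) and Mbp 0.021 (SE 0.14). By edgeR 0 genes (0%) were called, by limma voom 0 and by DESeq2 19 (0.109%), with 0 of the 8 by any of these tools.

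**Figure D2:**
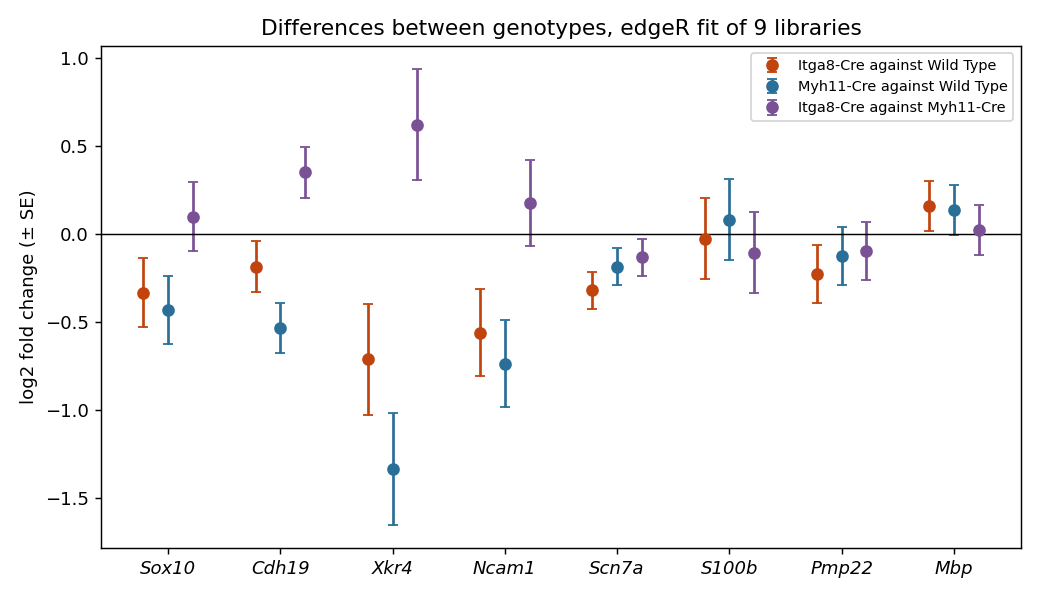
Log2 fold change ± SE (y axis) of the 8 genes in the 3 comparisons, from the edgeR fit of 9 libraries. The points of Xkr4 lie at -0.71 and -1.34 for Itga8-Cre and Myh11-Cre against Wild Type, and those of Mbp at 0.16 and 0.14.

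The 8 genes did not share a single pattern over the 9 libraries. Each gene's log2 CPM was standardised over the libraries, and likeness was taken as the root mean square (RMS) difference between profiles, in SD units, where 0 means the same pattern. Sox10 and Xkr4 were the closest pair (0.520), followed by Cdh19 and Xkr4 (0.529), Ncam1 and Xkr4 (0.632), Sox10 and Cdh19 (0.729) and Sox10 and Ncam1 (0.746). Scn7a was nearest to Ncam1 (0.790) and Pmp22 (0.801). Mbp was the farthest from this set, at 1.72 from Sox10 and 1.82 from Ncam1, and its nearest gene among the 8 was Pmp22 at 1.10. S100b was at 1.20 from Sox10 and 1.16 from Mbp.

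The same measure was taken between each gene and the summed level of marker lists of other cells. Cdh19 followed the axon and neuron markers closely, at 0.32, and so did Xkr4 at 0.48, where the nearest 5% of all 19412 genes lay under 0.601 and the median gene at 1.39. Sox10 was at 0.84 and Ncam1 at 0.99 from that list. To the summed level of 32 other Schwann cell and myelin genes, Sox10 (0.66) and Ncam1 (0.79) were nearer than to the axon list, Xkr4 was about as near (0.50) and Cdh19 farther (0.53). Scn7a was at 1.11 from the Schwann cell and myelin list, and S100b, Pmp22 and Mbp were farther still, with Mbp the farthest at 1.58. Scn7a was at 1.25 from the axon and neuron markers, and nearer to endothelial markers (0.72) and smooth muscle markers (0.74). Ncam1 was also at 0.82 from smooth muscle markers. Mbp and S100b were instead nearest to the brown fat markers (0.64 and 0.79) and the fat cell markers (0.80 and 0.89). Pmp22 was nearest to the oligodendrocyte markers (0.77), whose sum was at most 0.666 CPM in any library. It was at 0.93 from fat cell markers, 0.94 from endothelial markers and 1.32 from fibroblast markers. None of the 8 was nearer than 1.36 to the thymocyte markers or 1.24 to the skeletal muscle markers. Distances of all genes were taken to the axon and neuron markers only, so distances to the other lists have no such background. All profiles come from the same libraries, so shared tissue in a sample enters each of them.

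**Figure D3:**
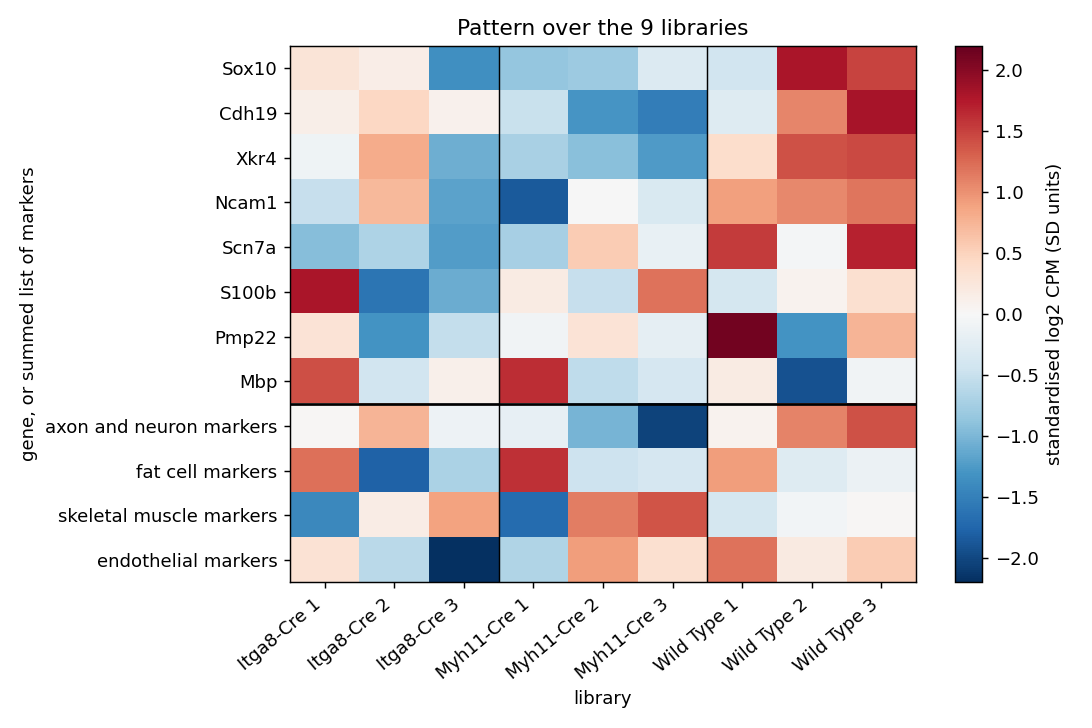
Standardised log2 CPM (colour, SD units) of the 8 genes and of the sums of 4 marker lists (rows) in the 9 libraries (columns). Sox10, Cdh19 and Xkr4 are high in Wild Type 2 and 3 like the axon and neuron markers, while Mbp is highest in Myh11-Cre 1 and Itga8-Cre 1 like the fat cell markers.

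The axon and neuron markers themselves had lower means in both Cre lines. Of the 15, all had a lower mean in Myh11-Cre than in Wild Type, with a median log2 fold change of -1.65. DESeq2 called 14 of them lower, against 3.09% of all genes, and 14 were lower in every library, against 14.7% of all genes. By contrast edgeR called 0, with 14 lower at an unadjusted p under 0.05, against 9.48% of all genes. In Itga8-Cre against Wild Type all 15 had a lower mean too, with a median of -0.62, and 0 were called by either tool or apart in every library. Th, the first enzyme of noradrenaline synthesis and a marker of sympathetic neurons, was at 53.6 CPM in Itga8-Cre aortae, 22.5 CPM in Myh11-Cre aortae and 88.0 CPM in Wild Type aortae on average. The part of nerve content in the lower values of Xkr4, Cdh19, Sox10 and Ncam1 was not tested.

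A list of 32 other Schwann cell and myelin genes, of which all were tested, was set beside the 8. Their median log2 fold change was 0.04 in Itga8-Cre and -0.06 in Myh11-Cre against Wild Type, with 13 of 32 lower in the first comparison and 17 of 32 in the second. None passed edgeR in any comparison. At an unadjusted p under 0.05 there were 2 higher and 0 lower in Itga8-Cre, where 3.97% of all genes were higher at that p. In Myh11-Cre there were 0 higher, against 6.93% of all genes, and 7 lower, against the 9.48% given above. In Itga8-Cre the 2 were Egr2, the transcription factor that turns on myelination, with 0.87 (SE 0.29, adjusted p = 0.699), and Cnp, an enzyme of the myelin membrane, with 0.46 (SE 0.17, adjusted p = 0.699). Egr2 is also an immediate early gene of many cells. L1cam and Foxd3, described next, had -0.56 (SE 0.28) and -0.46 (SE 0.26) there, with unadjusted p of 0.0747 and 0.109.

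In Myh11-Cre, DESeq2 called 3 of the 32, all lower, against 4.44% of all genes called and 3.09% called as lower. Ngfr, the low-affinity neurotrophin receptor of Remak cells and sympathetic neurons, was at 38.6, 22.5 and 12.9 CPM in Myh11-Cre aortae and at 52.2, 104 and 103 CPM in Wild Type aortae (log2 fold change -1.81, SE 0.42, edgeR adjusted p = 0.218, DESeq2 adjusted p = 0.00221). L1cam, an adhesion molecule of unmyelinated axons and their glia, was at 26.2, 21.1 and 15.4 CPM in Myh11-Cre aortae and at 31.7, 54.4 and 56.2 CPM in Wild Type aortae (-1.18, SE 0.28, edgeR adjusted p = 0.218, DESeq2 adjusted p = 0.00596). Col28a1, a collagen made by peripheral glia, was at 10.7, 8.19 and 7.42 CPM in Myh11-Cre aortae and at 12.2, 19.2 and 25.8 CPM in Wild Type aortae (-1.12, SE 0.27, edgeR adjusted p = 0.218, DESeq2 adjusted p = 0.00956). All 3 lay within 0.28 SD units of the axon and neuron marker sum. They were named for being called lower in Myh11-Cre, where that sum was also lowest, so part of this closeness follows from the choice. Foxd3, a factor of neural crest and glial precursors, had a log2 fold change of -0.78 (SE 0.26, adjusted p = 0.232).

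Grouped by role after their values were seen, 11 of the 32 were classed as genes of the myelin sheath itself and 21 were not. The 21 still include Egr2, which turns on myelination, so the split does not separate myelin genes from all others. In Myh11-Cre against Wild Type, 10 of the 11 sheath genes had a higher mean, with a median log2 fold change of 0.20. By edgeR 0 of the 11 were higher at an unadjusted p under 0.05, against 6.93% of all genes, and 1 was lower, against 9.48%. That 1 gene was also lower in every library, against 14.7% of all genes. Prx, which links the sheath to the basal lamina, had 0.10 (SE 0.19), and Mag, an adhesion protein facing the axon, 0.017 (SE 0.20). Of the other 21 genes, 16 had a lower mean and the median was -0.21. In Itga8-Cre against Wild Type the medians were 0.20 for the sheath genes, with 9 of 11 higher, and -0.06 for the others, with 11 of 21 lower. None of the sheath genes was called by edgeR or DESeq2 in any comparison.

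**Figure D4:**
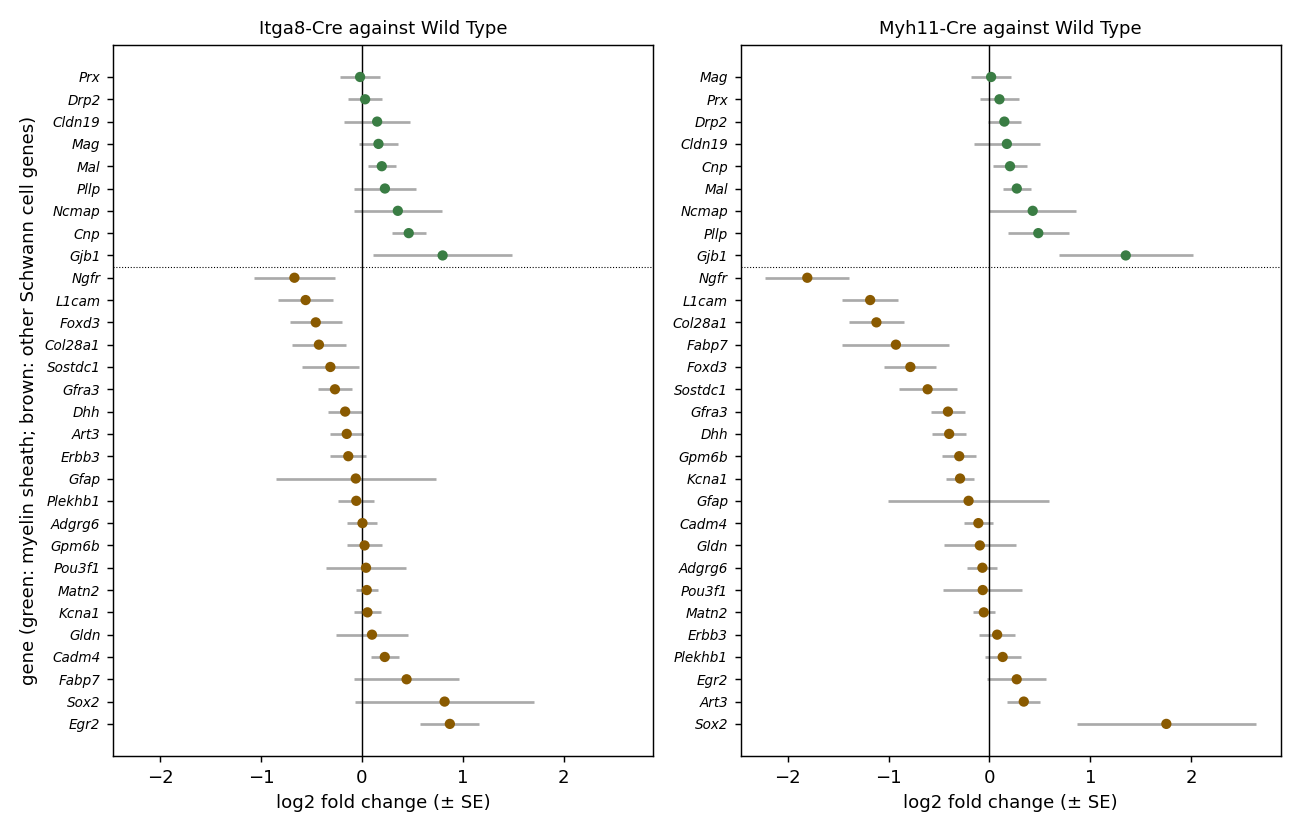
Log2 fold change ± SE (x axis) against Wild Type of 30 of the 32 other Schwann cell and myelin genes (rows), with sheath genes in green above the dotted line and the rest in brown. In Myh11-Cre, Ngfr, L1cam and Col28a1 lie at -1.81, -1.18 and -1.12, and all sheath genes drawn lie at or above 0.017. The 1 sheath gene with a lower mean in Myh11-Cre is not drawn.

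Sox2 and Art3 of that list differed between libraries of the same genotype. Sox2, a factor of Schwann precursors that is also made by foregut and airway epithelium, was at 0.400, 0.387 and 2.68 CPM in Itga8-Cre aortae, at 0.547, 3.33 and 2.74 CPM in Myh11-Cre aortae, and at 0.434, 0.529 and 0.989 CPM in Wild Type aortae. The 3 high libraries, Itga8-Cre 3, Myh11-Cre 2 and Myh11-Cre 3, were also those richest in skeletal muscle markers. Art3, the most abundant gene of the list per kilobase at 22.8 CPM per kilobase, is expressed in muscle as well. It was highest in Myh11-Cre 3 at 119 CPM and Myh11-Cre 2 at 117 CPM, and lowest in Itga8-Cre 3 at 64.4 CPM, which was also rich in skeletal muscle markers. Its means of 76.6 CPM in Itga8-Cre aortae and 107.5 CPM in Myh11-Cre aortae gave a log2 fold change of -0.49 (SE 0.17, unadjusted p = 0.0167, edgeR adjusted p = 0.521), with overlap between the groups.

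Genes most like the mean profile of the 8 were sought among 13804 named genes with a mean of at least 1 CPM. The nearest was Kdr, the VEGF receptor of endothelial cells, at 0.320 SD units, followed by the signalling ligand Wnt2b (0.379), Rabgap1 (0.389), Nudt16l1 (0.390), Tmeff1 (0.400), Kiss1r (0.408), the neurotrophin receptor Ntrk3 (0.420), Tspan17 (0.429) and the kinase Mapk3 (0.435). The 8 genes were themselves at 0.655 (Xkr4) to 1.46 (Mbp) from their own mean, and the median named gene was at 1.43. Mbp was thus farther from the mean profile than the median named gene.

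Gene by gene, the nearest profiles were closer. Sox10 lay nearest to the protocadherin Pcdh19 (0.118), with Pcdhgb7 (0.202) and Peg3 (0.248) next. Cdh19 lay nearest to Azin2 (0.13), Ptprr (0.132) and Col28a1 (0.132), the glial collagen above. Xkr4 lay nearest to Anks1b (0.145) and Faxc (0.202). Ncam1 lay nearest to Dpysl3 (0.118), a protein of growing axons, Klhdc8b (0.211) and Gspt2 (0.255). For Scn7a the nearest were Egr1 (0.410), Zc2hc1a (0.415) and Galnt16 (0.454). For Pmp22 they were the neurotrophin Ntf3 (0.343), Sorcs2 (0.352) and Lctl (0.365), for S100b Gna12 (0.308), Pomgnt1 (0.327) and D17H6S53E (0.332), and for Mbp Arpc4 (0.290), Stxbp2 (0.295) and Serp1 (0.303).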

How the data were processed

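Messenger RNA of whole, flash-frozen aortae was read with TruSeq Stranded mRNA libraries, per the labels' protocols. The authors deposited counts per gene, whole numbers that were used for every test. Per the submitters' processing notes, the build was GRCm38.p6 and reads were handled with STAR 2.7.0f and fastp 0.20.0 beside featureCounts, Subread 1.6.4, Salmon 0.13.1 and DESeq2, in roles that are not stated. The labels give neither the annotation release nor the strand setting of the counting. Within each genotype, libraries differed by more than sampling noise.

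The tests used edgeR 4.0.16 under R 4.3.3: filterByExpr by group (19412 of 55453 genes kept), TMM factors, a group-means model of all 9 libraries, robust quasi-likelihood F tests and Benjamini-Hochberg adjustment over the genes tested, with a threshold of 0.05. SE is the size of the log2 fold change divided by the root of F. Alternatives were DESeq2 1.42.0, limma 3.58.1 (voom), other factors, no filter, fits of 2 groups only, a mouse-number block and libraries left out. The fit was tested on simulated data. There it called 31% to 36% of genes changed 2-fold and 69% to 72% of genes changed 4-fold, with 1 to 5 false calls per comparison. Simulated counts were drawn for each gene apart, with the spread that the fit had estimated. They hold no tissue content shared between genes, so these figures may not hold for the real libraries. A pair of groups was called apart when all 3 libraries of the first lay above, or all below, those of the other. Exon lengths, positions and identifiers came from GENCODE M21. Standardised profiles used log2 CPM with a prior count of 2.

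The 8 genes and the marker lists were chosen with earlier results of these data known. Named genes were the 8, those of the 32 Schwann cell and myelin genes with the smallest p or the highest level per kilobase, the 10 profiles nearest to the mean and the 3 nearest to each gene. Mag, Prx, Sox2, Erbb3 and Th were chosen after their values were seen. Some genes that the rule names are not reported here, and they are left out of the plot of single genes but stay in the counts and medians.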

Additional observations from a re-analysis of the deposited data

How the results depend on the processing

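Of 24 log2 fold changes (8 genes in 3 comparisons), 17 kept their sign under all 18 alternatives and 7 did not, and none of those 7 passed the test under any alternative. S100b in Itga8-Cre against Wild Type ran from -0.36 to 0.12 without each library in turn and was 0.084 without the 3 libraries richest in skeletal muscle. In Myh11-Cre against Wild Type, leaving out libraries gave S100b -0.046 to 0.19 and Pmp22 -0.28 to 0.049. In Itga8-Cre against Myh11-Cre, leaving out libraries gave Mbp -0.072 to 0.14, S100b -0.44 to 0.036 and Ncam1 -0.11 to 0.32. Mbp was there -0.019 by DESeq2, -0.013 with median-of-ratios factors and -0.19 without the 3 muscle-rich libraries, where S100b was 0.041. Sox10 was -0.021 without the 2 libraries poorest in muscle.

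The count of genes called by DESeq2 was 30 in Itga8-Cre and 828 in Myh11-Cre against Wild Type and 19 between the Cre lines, against 0 by edgeR, and 1 of the 8 genes was called, Xkr4 in Myh11-Cre. In Myh11-Cre against Wild Type, edgeR called 1 gene with no filter, 1 with mouse number as a block, 1 without the 3 muscle-rich libraries and 265 without the 2 muscle-poor ones, with 0 of the 8 genes each time. Between the Cre lines it called 1 without the 3 muscle-rich libraries. The cause was not tested. Without the 3 muscle-rich libraries, Myh11-Cre keeps 1 library, and its spread is assumed equal to that of the other groups. Mouse numbers were not taken as pairs because the labels name no pairing. Residuals of 5 of 9 same-numbered pairs had a correlation above 0.1, and 5 of 9 libraries were nearest to their own number in both other groups. These correlations ran from 0.033 to 0.396, against -0.355 to 0.240 for pairs of unlike number from different groups. Of the 8 genes, Xkr4 and Sox10 rest on the fewest counts, 84 to 293 and 143 to 281 per library.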
